A study of Mus musculus with 8 samples.

Results

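The genes encoding the proteasome, the protease that degrades ubiquitin-tagged proteins, were compared between livers of mice with cystic fibrosis (CF) and of wild-type (WT) littermates. Members were all genes whose symbol in the array's platform annotation is Psma, Psmb, Psmc or Psmd followed by a number. The interferon-inducible Psmb8, Psmb9 and Psmb10 were kept apart. This gave 33 genes of the 16593 named on the array, 14 of the core particle and 19 of the regulatory particle, each read by its probe of highest mean over the 8 arrays. CF mice carried ΔF508 in Cftr, which encodes an anion channel of epithelia, and WT mice were littermates without it. Whether CF mice carried the change on both alleles is not given in the sources used here. All were C57BL/6J females of about 3 weeks. Mice of both genotypes received an enriched chow from weaning at day 21, and their water was replaced by a laxative of polyethylene glycol and salts at reduced strength, until tissue was taken at day 23. There were 4 CF and 4 WT arrays of whole-liver RNA, a mixture of hepatocytes and other cells. Fewer cells of a type and less RNA per cell cannot be told apart in it. Nothing in the labels says that each replicate is a separate animal, so p-values measure the spread between these samples.

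The core particle is a barrel of stacked alpha and beta rings. The outer alpha rings form a gate, and 3 of the beta subunits, Psmb5, Psmb6 and Psmb7, carry the protease sites. The regulatory particle caps the barrel. Its base holds a ring of ATPases, the Psmc proteins, that unfold the substrate, and Psmd proteins that bind ubiquitin, while its lid of further Psmd proteins includes Psmd14, which removes the ubiquitin chain. Psmd5, Psmd9 and Psmd10 are not subunits of the finished particle but chaperones that help to assemble the base. In many cells the genes of all these subunits are raised together by NFE2L1, a transcription factor that acts through antioxidant response elements when the proteasome is short. In liver the proteasome breaks down short-lived regulators, lipid enzymes and misfolded proteins, among them newly made CFTR with the ΔF508 change in cells that express it.

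Levels are deposited log2 expression values, differences are CF minus WT on the log2 scale with their fitted standard error (SE), and means are given with SD at n = 4 per genotype. A probe was tested when it lay above a background level of 6.44 on at least 4 arrays. Of the 33 members 31 were tested, and all of these 31 were above background on all 8 arrays. The only probes of Psma1 and Psma6, both alpha ring subunits, lay under background on all 8 arrays (6.08 or less for Psma1 and 6.00 or less for Psma6), so these genes have no usable value. No probe in the values used carried the symbol Psma8, Psmb11 or Psmd3, so these genes were not analysed here. Differences were tested with limma, p-values were adjusted by Benjamini and Hochberg across all 13249 probes tested, and a gene is called when its adjusted p is under 0.05.

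The samples carried liver markers, and 2 of them stood apart. The 6 hepatocyte markers had a mean level between 12.79 and 12.97 on the 8 arrays, and 0 of them passed the test (limma, 0 at unadjusted p under 0.05). WT 3 and CF 1 lay apart from the other arrays on the second principal component, which held 21.2% of the variance. The mean level of 4 exocrine pancreas markers was 12.13 in WT 3 and 11.66 in CF 1 and between 7.08 and 9.65 on the other arrays. Each called member, and each called gene that acts on or with the proteasome, is given below with and without WT 3 and CF 1. Of the endothelial markers 1 of 3 rose, with a mean list level of 8.26 to 8.48 in WT and 8.84 to 9.11 in CF, and Kdr was under background. The marker that rose was Lyve1 (difference 1.35), while Stab2 (0.32) and Pecam1 (0.22) did not pass. Kupffer cell markers had a mean level of 9.17 to 9.66 in WT and 9.35 to 10.12 in CF (1 of 4 rose, and Cd5l was under background), leukocyte markers 8.04 to 8.25 and 7.92 to 8.35 (1 of 5 fell) with Ptprc under background on all arrays, and cholangiocyte markers 6.56 to 6.80 and 6.64 to 6.77 (0 of 3 called by limma, 0 at unadjusted p under 0.05). The part of these cells in the proteasome values was not tested. The only Cftr probe was under background on all 8 arrays and does not check the genotype.

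Most proteasome genes had a slightly higher mean in CF livers, and few passed the test one by one. The difference was above 0 for 25 of the 31 tested members, or 80.6%, against 54.1% of the 9370 tested genes. Psmb7 and Psmd7, counted above 0, and Psmd11, counted below 0, had probes that differed in sign. On the mean of all tested probes of a gene, Psmb7 and Psmd7 each differed by -0.03. In that fit the median difference was 0.15 for the core and 0.11 for the regulatory particle. The median difference was 0.16 over the members and 0.02 over all tested genes. The members were brighter, with mean WT levels of 11.53 for core and 9.47 for regulatory genes against 8.30 over all tested genes. After cyclic loess, a further normalization, the median was 0.13 for core genes, 0.09 for regulatory genes and -0.004 over all tested probes. The part of brightness in the differences was not tested. The test called 4 members higher and 1 lower, 5 of 31 or 16.1%, where it called 19.3% of all tested genes (10.8% higher and 8.56% lower), so the share of calls was close to that of the array as a whole. Counted by probe, the test called 18.7% of the 13249, 10.1% higher and 8.57% lower. Without adjustment 12 members had p under 0.05. On its brightest probe no member differed by more than 0.5 in either direction, against 848 of the 9370 tested genes. A dimmer Psmd9 probe differed by 0.75. The called members were Psma7, Psmd9, Psmc5 and Psmd13, which rose, and Psma4, which fell. Without WT 3 and CF 1, Psma4 was the single member called. Calls fell array-wide in that fit, to 1064 of the 13249 probes from 2477 on all 8 arrays. The differences of the 5 called members were then -0.41 for Psma4, 0.38 for Psma7, 0.47 for Psmd9, 0.23 for Psmc5 and 0.33 for Psmd13. The median differences in the same fit were 0.17 for the core and 0.13 for the regulatory particle. The 26 members that had not passed then had differences between -0.24 and 0.41, and their lowest adjusted p was 0.0744, for Psmd12 (0.27). Among them Psmd4 went from 0.23 to 0.17, Psmd8 from 0.28 to 0.19 and Psma3 from -0.03 to 0.04.

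**Figure D1:**
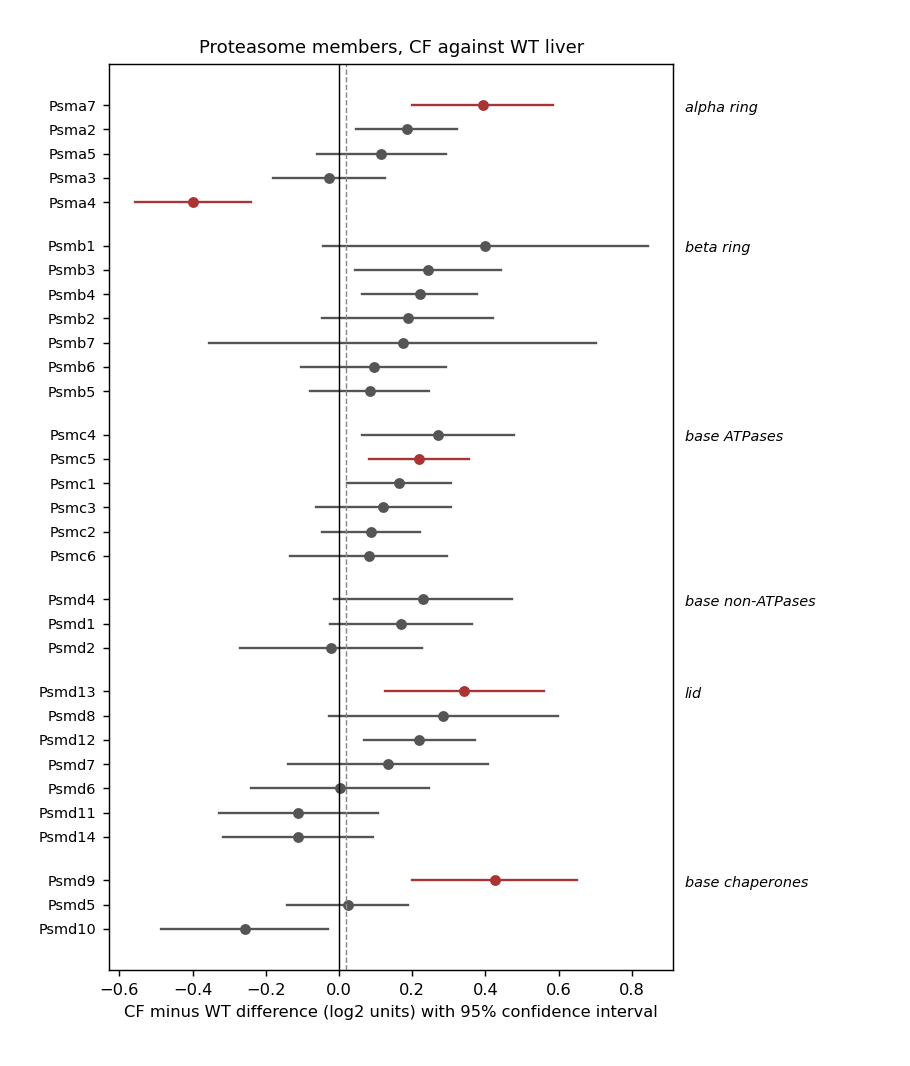
CF minus WT difference in log2 units for the 31 tested members, with 95% confidence intervals of the fit, grouped by position in the proteasome. Red marks the 5 called members, the solid line is 0 and the dashed line the median of all tested genes, 0.02; 25 points lie to the right of 0, and Psma4 and Psmd10 lie farthest to the left.

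The promoters of the 3 members with the lowest adjusted p are shown because they belong to genes that moved in opposite directions. RefSeq start sites in build GRCm38.p6 were found for 26 of the 31 tested members, with 27 windows, and the 250 bases before each start were searched on both strands. Motifs were the antioxidant response element core TGACNNNGC, the NF-Y box CCAAT and the ETS core CCGGAAG. Each sequence runs 5′ to 3′ in the direction of the gene and ends at the base before the start. Capitals mark motif matches.
Psma4, chr9:54950609-54950858, plus strand: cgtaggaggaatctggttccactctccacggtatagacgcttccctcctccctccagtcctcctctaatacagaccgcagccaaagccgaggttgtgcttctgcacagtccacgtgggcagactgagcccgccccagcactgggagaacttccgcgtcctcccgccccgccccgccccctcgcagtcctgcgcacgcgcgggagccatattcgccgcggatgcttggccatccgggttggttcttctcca
Psma7, chr2:180042465-180042714, minus strand: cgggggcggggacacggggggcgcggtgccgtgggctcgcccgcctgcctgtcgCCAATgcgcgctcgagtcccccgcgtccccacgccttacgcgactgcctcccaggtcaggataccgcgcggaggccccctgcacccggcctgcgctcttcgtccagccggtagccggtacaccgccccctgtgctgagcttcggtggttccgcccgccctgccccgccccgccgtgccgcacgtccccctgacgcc
Psmd9, chr5:123227940-123228189, plus strand: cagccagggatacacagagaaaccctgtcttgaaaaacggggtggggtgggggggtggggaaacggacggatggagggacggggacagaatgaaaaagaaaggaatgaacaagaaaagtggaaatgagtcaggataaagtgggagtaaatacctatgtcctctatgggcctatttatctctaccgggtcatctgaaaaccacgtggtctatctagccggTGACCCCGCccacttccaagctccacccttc
The Psmd9 window held an antioxidant response element core beginning at position -31 from the start, the Psma7 window held an NF-Y box beginning at -196, and the Psma4 window held 0 of the 3 motifs. The antioxidant core was in 5 of the 27 member windows, or 18.5%, against 10.2% of 32851 windows of all genes. Its holders were Psmb5, Psmb6, Psmc6, Psmd12 and Psmd9, of which Psmd9 was called. The NF-Y box was in 33.3% of member windows and 33.8% of all windows.

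The ETS core was in 9 of the 27 member windows, or 33.3%, against 6.91% of the windows of all genes. Counted by gene, it was in 8 of the 17 regulatory genes matched, or 47.1%, and in 0 of the 9 core genes matched. Psmb1, Psmb2 and Psmb7 of the core and Psmc3 and Psmd7 of the regulatory particle had no window to search. The holders were Psmc1, Psmc2, Psmc6, Psmd2, Psmd4, Psmd6, Psmd11 and Psmd12. Of these 8, 0 were among the called members, where the test called 16.1% of all tested members and 19.3% of all tested genes. A count over 8 genes does not set the holders apart from those shares. The sequences around 4 of the ETS matches, with up to 30 bases on either side and the match in capitals, are shown as examples.
Psmc1, chr12:100110144-100110201, plus strand: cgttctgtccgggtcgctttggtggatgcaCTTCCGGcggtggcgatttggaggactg
Psmd2, chr16:20651596-20651651, plus strand: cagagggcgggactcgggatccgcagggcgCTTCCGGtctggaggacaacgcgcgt
Psmd12, chr11:107479481-107479527, plus strand: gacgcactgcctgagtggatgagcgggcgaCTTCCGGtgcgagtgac
Psmd6, chr14:14120954-14121020, minus strand: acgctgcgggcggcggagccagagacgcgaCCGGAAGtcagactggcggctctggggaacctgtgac
The matches began at position -28 in Psmc1, -26 in Psmd2, -17 in Psmd12 and -45 in Psmd6. Those not shown began at -11 in Psmd11, -24 and -84 in the windows of Psmc2, -100 in Psmc6 and -125 in Psmd4. A match describes these letters alone and is not a measured site.

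Alpha ring subunits went in both directions. Of the 5 tested, Psma7 rose, Psma4 fell and 3 did not pass. Psma4 was at 11.78, 11.66, 11.65 and 11.81 in WT 1 to WT 4 and at 11.27, 11.43, 11.37 and 11.23 in CF 1 to CF 4. Every CF array lay under every WT array. The mean fell from 11.72 ± 0.08 to 11.32 ± 0.09 (difference -0.40 ± 0.07 SE, 1.32-fold lower, limma adjusted p = 0.00518). Its adjusted p was 0.00783 to 0.0171 as single arrays were left out and 0.0357 without WT 3 and CF 1.

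Psma7, a further alpha ring subunit, moved the other way by a similar amount. It was at 10.63, 11.03, 10.88 and 10.86 in WT 1 to WT 4 and at 11.29, 11.29, 11.21 and 11.17 in CF 1 to CF 4. The lowest CF array was above the highest WT array, WT 2. The mean rose from 10.85 ± 0.16 to 11.24 ± 0.06 (difference 0.39 ± 0.09 SE, 1.31-fold higher, adjusted p = 0.0134). A further Psma7 probe gave 0.32 ± 0.08 SE (adjusted p = 0.0210). The call was kept in each of the 8 fits that left out 1 array, and adjusted p was 0.0813 without WT 3 and CF 1 together, with a difference of 0.38.

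The other alpha ring genes were closer to 0. Psma2 was at 12.42 to 12.48 in WT and 12.60 to 12.75 in CF, groups that do not overlap, with a difference of 0.18 ± 0.06 SE (adjusted p = 0.0660). Psma5 differed by 0.12 (95% interval -0.06 to 0.29) and Psma3 by -0.03 (-0.18 to 0.13). Both had overlapping groups.

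Each of the 7 beta ring genes had a difference above 0 on its brightest probe. Of these, 0 of 7 passed (limma, 2 at unadjusted p under 0.05, and 2 called with array weights). Among the protease subunits, Psmb5, of the chymotrypsin-like site, was at 9.31, 9.53, 9.27 and 9.35 in WT 1 to WT 4 and 9.47, 9.51, 9.42 and 9.40 in CF 1 to CF 4. The CF arrays lay inside the WT range, with a difference of 0.08 (95% interval -0.08 to 0.25, adjusted p = 0.473). Psmb6, of the caspase-like site, was at 11.82, 11.67, 11.52 and 11.70 in WT and 11.62, 11.70, 11.85 and 11.91 in CF, with a difference of 0.09 (-0.10 to 0.29). Psmb7, of the trypsin-like site, had 3 probes that differed in sign. The brightest was at 10.36, 11.66, 11.26 and 11.22 in WT 1 to WT 4 and 11.37, 11.34, 11.03 and 11.46 in CF 1 to CF 4, with a difference of 0.17 (-0.35 to 0.70) that became -0.08 without WT 1. The other Psmb7 probes gave -0.01 and -0.25, so no direction can be given for this gene.

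The structural beta subunits Psmb3 and Psmb4 had CF arrays entirely above WT arrays. Psmb4 was at 12.71, 12.66, 12.50 and 12.67 in WT 1 to WT 4 and 12.76, 12.91, 12.84 and 12.91 in CF 1 to CF 4, with a difference of 0.22 ± 0.07 SE (adjusted p = 0.0554). Psmb3 differed by 0.24 ± 0.09 SE (adjusted p = 0.0890). With array weights, of which WT 3 had the highest (1.99), Psmb4 had adjusted p = 0.0342 and Psmb3 0.0470. That fit called 2783 of the 13249 probes. Psmb1 had the largest difference of the ring, 0.40 ± 0.20 SE (adjusted p = 0.196), from 10.54, 9.75, 10.69 and 10.61 in WT 1 to WT 4 and 11.07, 10.63, 10.82 and 10.69 in CF 1 to CF 4. WT 2 was far below the others, and without it the difference was 0.18. Psmb2 differed by 0.19 (-0.05 to 0.42), and its further tested probe gave 0.18.

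**Figure D2:**
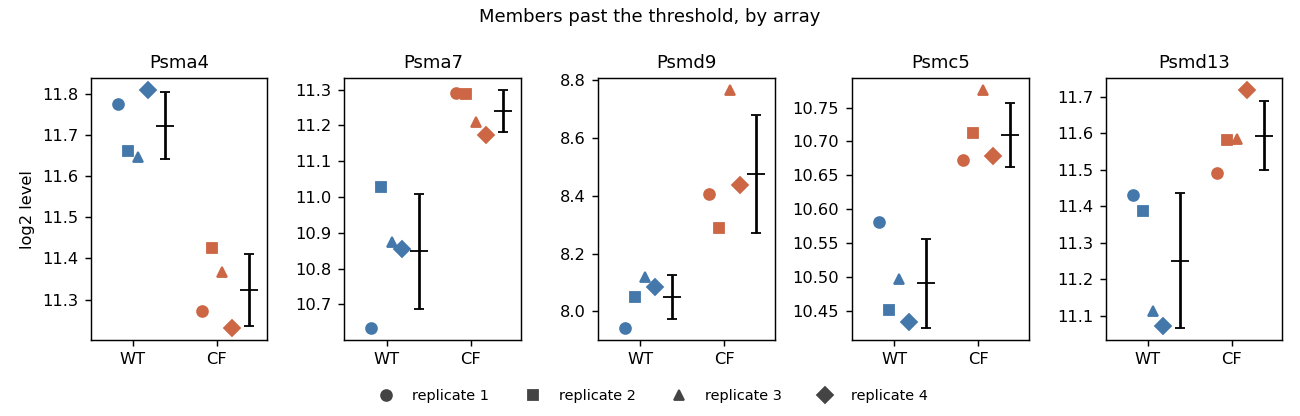
Log2 level of the 5 called members on each array, WT in blue and CF in orange, with marker shape for the replicate number and the black bar for mean ± SD of 4 arrays; each panel has its own axis. In Psma4 the CF arrays lie under the WT arrays and in Psma7, Psmd9, Psmc5 and Psmd13 above them.

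The 6 base ATPases all had differences above 0, between 0.08 and 0.27, and 1 of them rose. Psmc5 was at 10.58, 10.45, 10.50 and 10.43 in WT 1 to WT 4 and at 10.67, 10.71, 10.78 and 10.68 in CF 1 to CF 4. The groups did not overlap, and the mean rose from 10.49 ± 0.07 to 10.71 ± 0.05 (difference 0.22 ± 0.06 SE, adjusted p = 0.0352). This call was not firm. Adjusted p was 0.0831, 0.0826, 0.0916, 0.0607, 0.0718, 0.0827 and 0.0547 without WT 2, WT 3, WT 4, CF 1, CF 2, CF 3 and CF 4, and 0.133 without WT 3 and CF 1 together. A further Psmc5 probe gave a difference of 0.07 with overlapping groups (adjusted p = 0.713). Psmc4 was at 11.13, 11.07, 10.88 and 10.95 in WT 1 to WT 4 and 11.22, 11.31, 11.11 and 11.48 in CF 1 to CF 4, with a difference of 0.27 ± 0.09 SE (adjusted p = 0.0714, and 0.0484 without CF 3). Over the 8 fits that left out 1 array its adjusted p was 0.0484 to 0.180. Psmc1 differed by 0.16 ± 0.06 SE and did not pass, with the lowest CF and the highest WT array both at 10.17 after rounding. Psmc2, Psmc3 and Psmc6 differed by 0.09, 0.12 and 0.08, and their intervals include 0.

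Of the remaining base subunits 0 of 3 passed (limma; 0 at unadjusted p under 0.05, and 0 with array weights). Psmd4, a ubiquitin receptor, was at 11.89, 11.85, 11.75 and 11.78 in WT 1 to WT 4 and 12.15, 12.16, 11.70 and 12.17 in CF 1 to CF 4. CF 3 lay below all WT arrays and the other CF arrays above them. The difference was 0.23 ± 0.11 SE (adjusted p = 0.178), and without CF 3 it was 0.34 (adjusted p = 0.0118). Over the 8 fits that left out 1 array it was 0.19 to 0.34, with adjusted p of 0.0118 to 0.337. Psmd1 and Psmd2 form the scaffold of the base. Psmd1 differed by 0.17 (-0.03 to 0.36). Psmd2 was at 7.45, 7.29, 7.10 and 7.01 in WT and 7.06, 7.27, 7.09 and 7.36 in CF, a difference of -0.02 (-0.27 to 0.23).

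In the lid 1 of 7 genes rose and 6 did not pass. Psmd13, a structural lid subunit, was at 11.43, 11.39, 11.11 and 11.07 in WT 1 to WT 4 and at 11.49, 11.58, 11.59 and 11.72 in CF 1 to CF 4. All CF arrays were above all WT arrays, with WT 1 and CF 1 nearest to each other. The mean rose from 11.25 ± 0.18 to 11.59 ± 0.09 (difference 0.34 ± 0.10 SE, 1.27-fold higher, adjusted p = 0.0372). Adjusted p was 0.102, 0.0903, 0.0501, 0.0707, 0.0707 and 0.0886 without WT 3, WT 4, CF 1, CF 2, CF 3 and CF 4, and 0.123 without WT 3 and CF 1 together.

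Psmd12 lay at the threshold. It was at 10.25, 10.17, 10.18 and 10.17 in WT 1 to WT 4 and 10.26, 10.46, 10.47 and 10.46 in CF 1 to CF 4. CF 1 stood near the WT arrays and the other CF arrays together above them, with a difference of 0.22 ± 0.07 SE (adjusted p = 0.0502, and 0.0253 without CF 1). Over the 8 fits that left out 1 array the adjusted p of Psmd12 was 0.0253 to 0.114. A further, dimmer Psmd12 probe gave 0.01. Psmd14, the deubiquitinase of the lid, was at 9.12, 9.11, 9.18 and 9.31 in WT 1 to WT 4 and 8.95, 8.92, 9.27 and 9.14 in CF 1 to CF 4. Its groups overlapped, with a difference of -0.11 (-0.32 to 0.09). Psmd8 differed by 0.28 (-0.03 to 0.60, adjusted p = 0.193), and by 0.42 without WT 1 (adjusted p = 0.0336). Over the 8 fits that left out 1 array its difference was 0.16 to 0.42 and its adjusted p 0.0336 to 0.409. Psmd6 differed by 0.00 (-0.24 to 0.25). Psmd7 and Psmd11 had probes that differed in sign, at 0.13 and -0.19 for Psmd7 and at -0.11 and 0.05 for Psmd11.

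Of the base chaperones 1 of 3 rose and 2 did not pass. Psmd9 was at 7.94, 8.05, 8.12 and 8.09 in WT 1 to WT 4 and at 8.41, 8.29, 8.76 and 8.44 in CF 1 to CF 4. The groups did not overlap, and CF 3 was the highest array. The mean rose from 8.05 ± 0.08 to 8.47 ± 0.20 (difference 0.42 ± 0.10 SE, 1.34-fold higher, adjusted p = 0.0188), the largest difference among the 31 members. A dimmer Psmd9 probe was at 7.010, 6.999, 6.928 and 6.903 in WT and 7.82, 7.65, 7.87 and 7.51 in CF, a difference of 0.75 ± 0.09 SE (adjusted p = 0.000720). The call on the brighter probe was kept in each of the 8 fits that left out 1 array, and adjusted p was 0.0668 without WT 3 and CF 1 together.

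Psmd10, also named gankyrin, was at 9.60, 9.31, 9.22 and 9.16 in WT 1 to WT 4 and at 8.91, 9.15, 9.10 and 9.09 in CF 1 to CF 4. The CF arrays were below the WT arrays by a narrow gap, and the difference of -0.26 ± 0.10 SE did not pass (adjusted p = 0.113). Its 3 probes gave -0.25, -0.26 and -0.26. Their mean had adjusted p = 0.0255 in a fit on the mean of all tested probes of each gene. Psmd5 differed by 0.02 (-0.14 to 0.19).

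**Figure D3:**
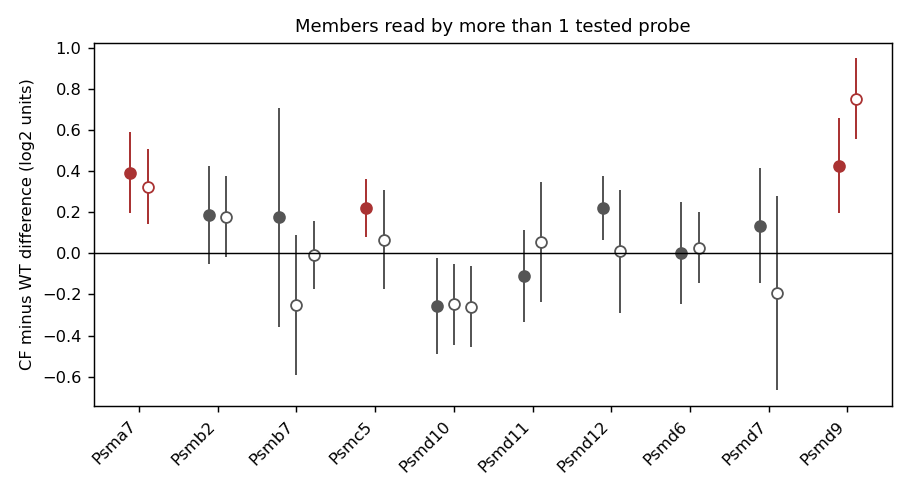
CF minus WT difference in log2 units, with 95% confidence intervals, for the 10 members read by more than 1 tested probe. Filled points are the brightest probe of each gene, open points the others, and red marks called probes; both Psmd9 and both Psma7 probes are called, the 3 Psmd10 probes lie together below 0, and the probes of Psmb7, Psmd7 and Psmd11 differ in sign.

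Core and regulatory particles were both slightly higher in mean level in CF livers. The median difference was 0.18 over the 12 tested core genes (10 of 12 above 0, 1 higher and 1 lower called) and 0.13 over the 19 tested regulatory genes (15 of 19 above 0, 3 higher and 0 lower called by limma). The mean core level was 11.48, 11.59, 11.50 and 11.55 in WT 1 to WT 4 and 11.65, 11.68, 11.63 and 11.71 in CF 1 to CF 4. The mean regulatory level was 9.49, 9.48, 9.44 and 9.45 in WT and 9.55, 9.57, 9.58 and 9.64 in CF. In both particles every CF array was above every WT array. The mean over all tested genes lay between 8.28 and 8.32 on every array.

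The gap between the particles overlapped between genotypes. The mean core level minus the mean regulatory level was 1.997, 2.102, 2.057 and 2.098 in WT 1 to WT 4 and 2.10, 2.11, 2.05 and 2.07 in CF 1 to CF 4. These ranges overlap, and their means differed by 0.02 with SDs of 0.05 in WT and 0.03 in CF. By subgroup, the mean level differed by 0.20 for the beta ring, 0.16 for the ATPases and 0.11 for the lid, each with CF arrays above WT arrays. It differed by 0.05 for the alpha ring, 0.13 for the remaining base subunits and 0.06 for the chaperones, whose groups overlapped. CF and WT arrays did not overlap for 11 of the 31 members (9 higher, 2 lower), or 35.5%, against 24% of all tested genes (13.7% higher and 10.3% lower). Among CF arrays CF 4 was the highest for 15 members and CF 1 the lowest for 14.

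**Figure D4:**
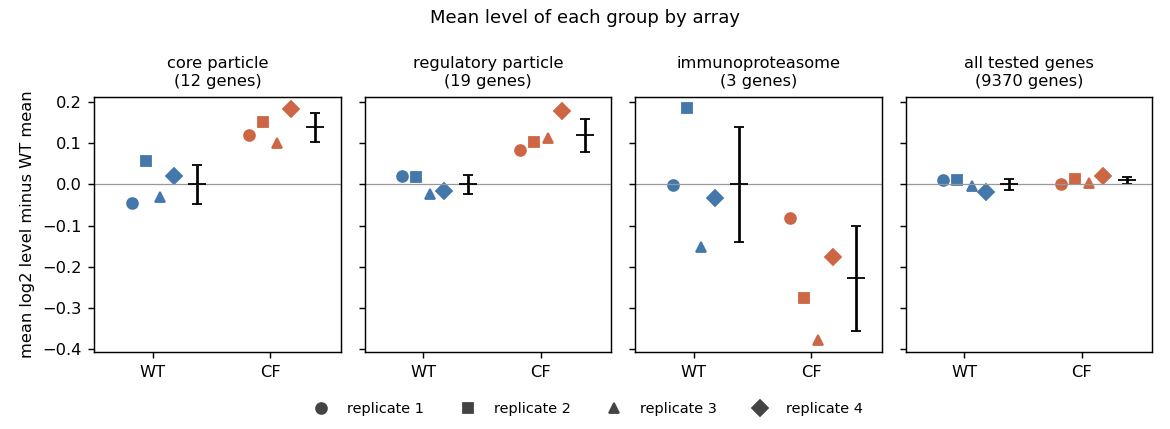
Mean log2 level over the tested genes of a group on each array, minus the WT mean of that group, with the black bar for mean ± SD of 4 arrays and marker shape for the replicate number. In the core and regulatory panels all CF arrays lie above all WT arrays, the immunoproteasome panel has overlapping groups, and the points of all tested genes lie close to 0.

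The immunoproteasome genes, whose products replace the 3 protease subunits in immune cells and under interferon, had 2 differences below 0 and 1 near 0. Of these, 0 of 3 passed (limma; 2 at unadjusted p under 0.05, and 0 with array weights). Psmb9 was at 9.30, 9.31, 8.98 and 9.01 in WT 1 to WT 4 and 9.06, 8.64, 8.56 and 8.79 in CF 1 to CF 4. CF 1 fell inside the WT range and the other CF arrays below it, with a difference of -0.38 ± 0.13 SE (adjusted p = 0.0608). Without CF 1 the difference was -0.48 (adjusted p = 0.0240), and without WT 3 and CF 1 it was -0.54 (adjusted p = 0.0302). Over the 8 fits that left out 1 array it was -0.48 to -0.32, with adjusted p of 0.0240 to 0.138. Psmb10 was at 9.99, 10.22, 9.83 and 9.97 in WT and 9.60, 9.76, 9.46 and 9.96 in CF, with a difference of -0.31 ± 0.12 SE (adjusted p = 0.109, and 0.0449 without CF 4). As single arrays were left out the Psmb10 difference was -0.40 to -0.23, with adjusted p of 0.0449 to 0.231. Psmb8 was at 6.92, 7.25, 6.96 and 7.15 in WT and 7.31, 6.99, 7.07 and 6.94 in CF, a difference of 0.01 (-0.22 to 0.24). Of the 6 tested interferon-gamma response genes 1 fell, Gbp2, a guanylate-binding protein (-0.39 ± 0.11 SE, adjusted p = 0.0337), and the mean level of that list was 9.60 to 9.81 in WT and 9.33 to 9.71 in CF. Its part in the immunoproteasome values was not tested.

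Among genes that act on or with the proteasome, 3 of 23 were called, 1 higher and 2 lower. The test called 19.3% of all tested genes (10.8% higher and 8.56% lower), and no test compared these shares. Psme4, a cap that activates the core without ATP and ubiquitin, was at 11.247, 11.039, 11.099 and 11.026 in WT 1 to WT 4 and 10.56, 10.80, 10.80 and 10.67 in CF 1 to CF 4. All CF arrays were below all WT arrays, and the mean fell from 11.103 ± 0.10 to 10.71 ± 0.12 (difference -0.40 ± 0.08 SE, 1.32-fold lower, adjusted p = 0.00979). Without WT 3 and CF 1 its adjusted p was 0.0668. Psme1 and Psme2, which form the interferon-inducible cap, differed by -0.03 and -0.26, and Psme3, a nuclear cap, by 0.17, and none of these 3 passed (limma; Psme2 had unadjusted p = 0.0317).

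Uchl5, a deubiquitinase that binds the regulatory particle, was at 8.69, 8.55, 8.71 and 8.54 in WT 1 to WT 4 and 8.28, 8.12, 8.42 and 8.28 in CF 1 to CF 4. Its groups did not overlap and the mean fell by 0.35 (SE 0.08, adjusted p = 0.0162). Its other tested probes gave -0.37 (adjusted p = 0.00569) and -0.22 (adjusted p = 0.150). Adjusted p was 0.0513 without WT 3 and 0.102 without WT 3 and CF 1. The other bound proteins that were tested, 7 of 8, did not pass. Sem1, a small lid subunit outside the Psmd symbols, had 0.25 ± 0.09 SE (adjusted p = 0.0964). Its adjusted p was 0.0457 (without WT 1) to 0.216 as single arrays were left out. Usp14, a further deubiquitinase, had 0.02.

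Nfe2l1 was at 10.36, 10.35, 10.20 and 10.12 in WT 1 to WT 4 and 10.33, 10.23, 10.25 and 10.31 in CF 1 to CF 4. Its difference was 0.02 (-0.14 to 0.18, adjusted p = 0.875). This is an RNA level, and the amount and activity of NFE2L1 protein were not measured. Nfe2l2, the related factor of the oxidant response, was at 7.14, 6.86, 7.17 and 7.11 in WT and 7.11, 6.90, 7.03 and 7.02 in CF, a difference of -0.05 (-0.24 to 0.14). Mafg, a small Maf protein that pairs with both factors on DNA, was at 9.48, 9.11, 9.25 and 8.92 in WT 1 to WT 4 and 9.62, 9.52, 9.76 and 9.77 in CF 1 to CF 4. All CF arrays were above all WT arrays, with a rise of 0.48 ± 0.12 SE (adjusted p = 0.0218). Its adjusted p was 0.0559 without WT 2, 0.0537 without CF 3, 0.0537 without CF 4 and 0.0839 without WT 3 and CF 1. The related Maff and Mafk, and Ngly1, which processes NFE2L1 protein, were not above background on enough arrays to be tested. The core assembly chaperones Psmg1, Psmg2, Psmg3 and Pomp differed by -0.10 to 0.08, and 0 of 4 passed (limma; 0 at unadjusted p under 0.05, and 0 with array weights). Vcp, the ATPase that extracts ubiquitin-tagged proteins for the proteasome, differed by -0.06 and did not pass.

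**Figure D5:**
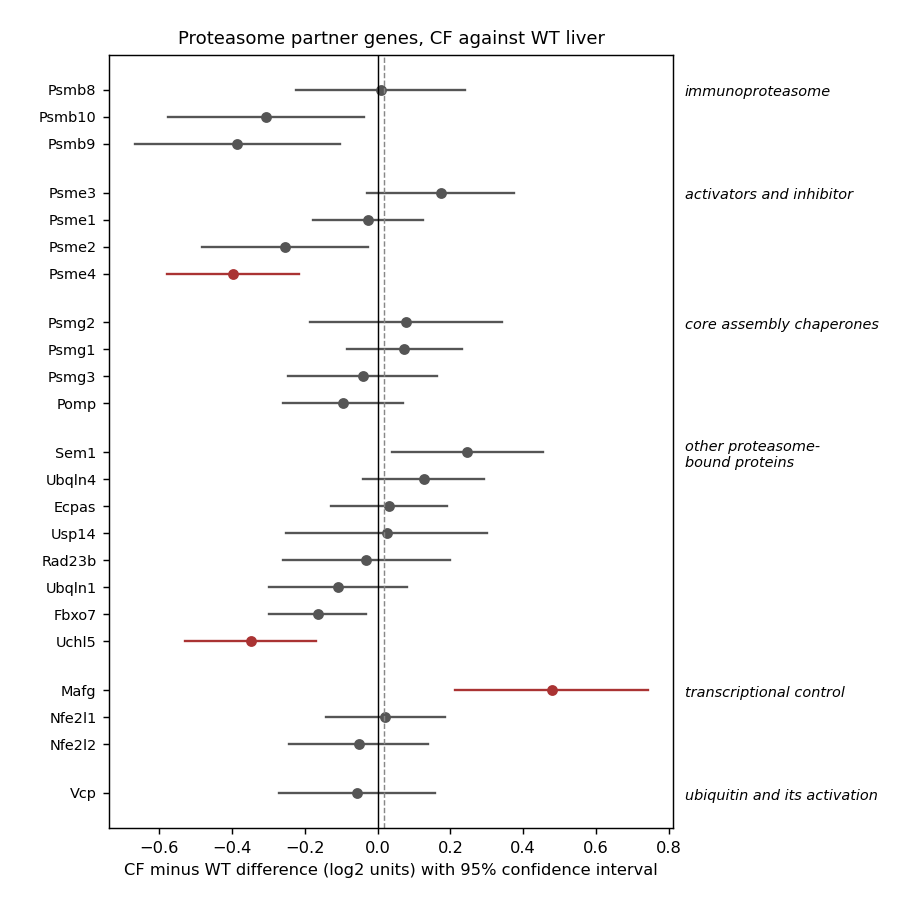
CF minus WT difference in log2 units, with 95% confidence intervals, for the 23 tested partner genes of the proteasome, drawn as for the members. Psme4 and Uchl5 lie below 0 and Mafg above it in red, and the other 20 intervals are grey.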

How the data were processed

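Biotin cRNA made from total RNA of whole liver was hybridised to Illumina mouse bead arrays of 1 colour, with GenomeStudio named in the submitters' processing notes without a version. The deposited log2 values of 25697 probes on 8 arrays were used. Their sorted values were equal between arrays to within 0.000351, so the authors had quantile-normalized them. Background correction and the exact transform are not given in the sources used here, and quantile normalization hides any change common to most transcripts. The 32 scanner columns, named by chip position that no label ties to a sample, were not used, so the deposited values took the place of scanner signals.

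Background was the mode of all values, 6.17, plus 1.645 times the spread below it, 0.166. Probes above 6.44 on at least 4 arrays were tested with limma 3.58.1 in R 4.3.3 (lmFit, eBayes, two-sided, genotype the single term). The fit was tested on simulated data. Symbols came from the platform annotation, and gene IDs gave the same RefSeq symbol for 50 of 50 member probes. Precision is limited by the number of arrays (median SE 0.0880).

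Members and lists were chosen with earlier results of these data known. Named genes were called members in order of adjusted p, the extremes of each subgroup, the protease and immunoproteasome genes, called partner genes, Nfe2l1 and Nfe2l2. Other genes named were chosen after their values were seen. Lists were described by counts and medians, without a list test. Correlations of deviations between equal-numbered arrays were -0.33, 0.06, -0.29 and 0.09, so numbers were not taken as pairs.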

Additional observations from a re-analysis of the deposited data

Results flagged for a closer look

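In 9 of the 108 groups of 4 arrays examined (8.33%), 1 array lay far from the other 3, where chance gives about 1 in 20. CF 4 was high for Psma2, at 12.75 against 12.60 on each of the other 3, and for Psme3, at 10.12 against 9.84 to 9.88. CF 3 was low for Psmd4, at 11.70 against 12.15 to 12.17, and for Psmd7, at 10.30 against 10.55 to 10.58. CF 1 was low for Psmd12, at 10.26 against 10.46 to 10.47, and for Pomp, at 12.03 against 12.18 to 12.21. Among WT arrays, WT 2 was low for Psmb1, at 9.75 against 10.54 to 10.69. WT 4 was high for Psmc1, at 10.17 against 10.04 to 10.06, and WT 1 was high for Psmd12, at 10.25 against 10.17 to 10.18. The cause of these values was not tested.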

How the results depend on the processing

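Of the comparisons of single genes with their value under another setting, 965 kept their side of the threshold, 36 lost a call and 25 gained one. None changed sign with a call. Most of these genes held no call to lose. Among the called genes, over 19 settings each, Psmc5 lost its call in 13, Psmd13 in 9 and Mafg in 6. Uchl5 lost it in 3, Psma7 and Psmd9 in 2 each, Psme4 in 1 and Psma4 in 0. The array-wide count of 2477 called probes became 1440 with a replicate block, 992 at a threshold of 0.01, 1064 without WT 3 and CF 1, and 1617 to 2086 as single arrays were left out (1617 without WT 3). Equal replicate numbers are not known to pair animals. With the replicate block the regulatory count went from 3 to 1, as Psmc5 (adjusted p = 0.108) and Psmd13 (0.104) were lost, and Mafg had 0.0537. With array weights 4 core and 5 regulatory members were called, beside 2783 of the 13249 probes. WT 3 had the highest of these weights, 1.99. At a threshold of 0.01 the counts were 1, 0 and 1 for core, regulatory and partner genes. At 0.10 they were 5, 5 and 6, beside 3441 probes called. Without WT 3 and CF 1 they were 1, 0 and 1. Single arrays left out gave 2 core members in each fit, 1 to 4 regulatory members (1 without WT 3, WT 4, CF 2 or CF 4, and 4 without WT 1) and 2 to 4 partner genes (4 without WT 1 or CF 1). Cyclic loess moved the medians to 0.131 for core and 0.0923 for regulatory genes, and single arrays left out gave 0.132 to 0.202 (lowest without CF 4) and 0.0841 to 0.177 (lowest without WT 1, highest without WT 2). The median stayed above 0 in every setting run for both particles. Psmc5 had adjusted p of 0.0740 with a trended robust prior, 0.0660 with cyclic loess and 0.202 on the mean of its probes. A stricter threshold lowers a count by construction, and the cause of the other changes was not tested. The differences of most members, under 0.3, are small beside intervals of this width, so a missed call does not show that levels were equal.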
